A study of Mus musculus with 6 samples.

Results

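The genes of the extracellular matrix and of its remodelling were followed in whole mouse kidney after ischemia and reperfusion, in mice lacking LIGHT and in wild type mice. Members were taken by symbol from a table of 13026 genes. They are collagen, laminin, fibulin, fibrillin, matrix metalloproteinase, Timp, Adamts, thrombospondin, nidogen and lysyl oxidase-like genes, with Lox, Fn1, Sparc, Dcn, Lum, Bgn, Hspg2 and Agrn. The symbols matched 83 genes of the table, of the 126 that match in the GENCODE M21 annotation. Col4a3bp matched by its spelling alone, since it encodes a ceramide transfer protein, and was set aside with 17.7 ± 1.15 FPKM in the knockout and 19.3 ± 1.57 FPKM in wild type (SD, n = 3 each). The other 82 fell into 23 basement membrane genes, 33 interstitial genes, and 26 genes of matrix proteases and their inhibitors.

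The study comprised 3 libraries of LIGHT-/- kidney and 3 of LIGHT+/+ (wild type, WT) kidney. LIGHT, the product of Tnfsf14, is a TNF family ligand that signals through HVEM and the lymphotoxin beta receptor, and the level of Tnfsf14 itself was not analysed here. All mice were adult males on the C57BL/6J background, and all had both kidneys made ischemic for 32 min and reperfused for 24 h, so both groups carry the injury and no unoperated kidney was analysed here. The sources used here do not say how the allele was made or that each library was a separate mouse, and p-values measure the spread between these libraries. Values are FPKM, reads scaled by transcript length and library total, so levels of different genes can be set side by side. In bulk tissue, fewer cells of a type and less RNA per cell cannot be told apart.

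Matrix is of 2 broad kinds. Basement membranes are sheets of collagen IV and laminin, joined by nidogen and the heparan sulfate proteoglycans perlecan and agrin, that underlie tubules, capillaries and podocytes. The interstitial matrix holds fibrillar collagens, cross-linked by lysyl oxidases and bound by small proteoglycans, and is made largely by fibroblasts and pericytes. Metalloproteinases and ADAMTS enzymes cut both kinds, and the TIMP proteins inhibit them. In the kidney this balance is best known from scarring after injury.

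No matrix gene passed the test over all genes. Of the 80 members with a mean of at least 0.5 FPKM, 0 had an adjusted p under 0.05 in limma with Benjamini-Hochberg adjustment over 12836 genes, of which 0.117% were called, and 5 had an unadjusted p under 0.05. Col27a1, Timp3 and Col14a1 were on the higher side in the knockout, where 4.34% of all genes had such a p, and Col18a1 and Mmp3 were on the lower side, where 3.74% had one. Over both sides that is 5 of 80 members, against 8.08% of all genes. Groups did not overlap in 13 of 80 members, or 16.2%, against 16.6% of all genes, with 5 members on the higher side, where 7.76% of all genes lay, and 8 on the lower, where 8.8% did. Neither share stands out from all genes. Without knockout library 3, which stood apart from the others, 0 members passed the adjusted test (0.0857% of all genes did), 2 had an unadjusted p under 0.05 on the higher side (3.86% of all genes) and 2 on the lower (3.3%). Fold changes were taken from log2(FPKM + 1), so that they are smaller than the ratio of the means where a level is low. Thbs3 and Mmp12 were below the minimum and untested, and Lamc3, Lum and Adamts7 passed it although 1 group averaged under 0.5 FPKM.

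**Figure D1:**
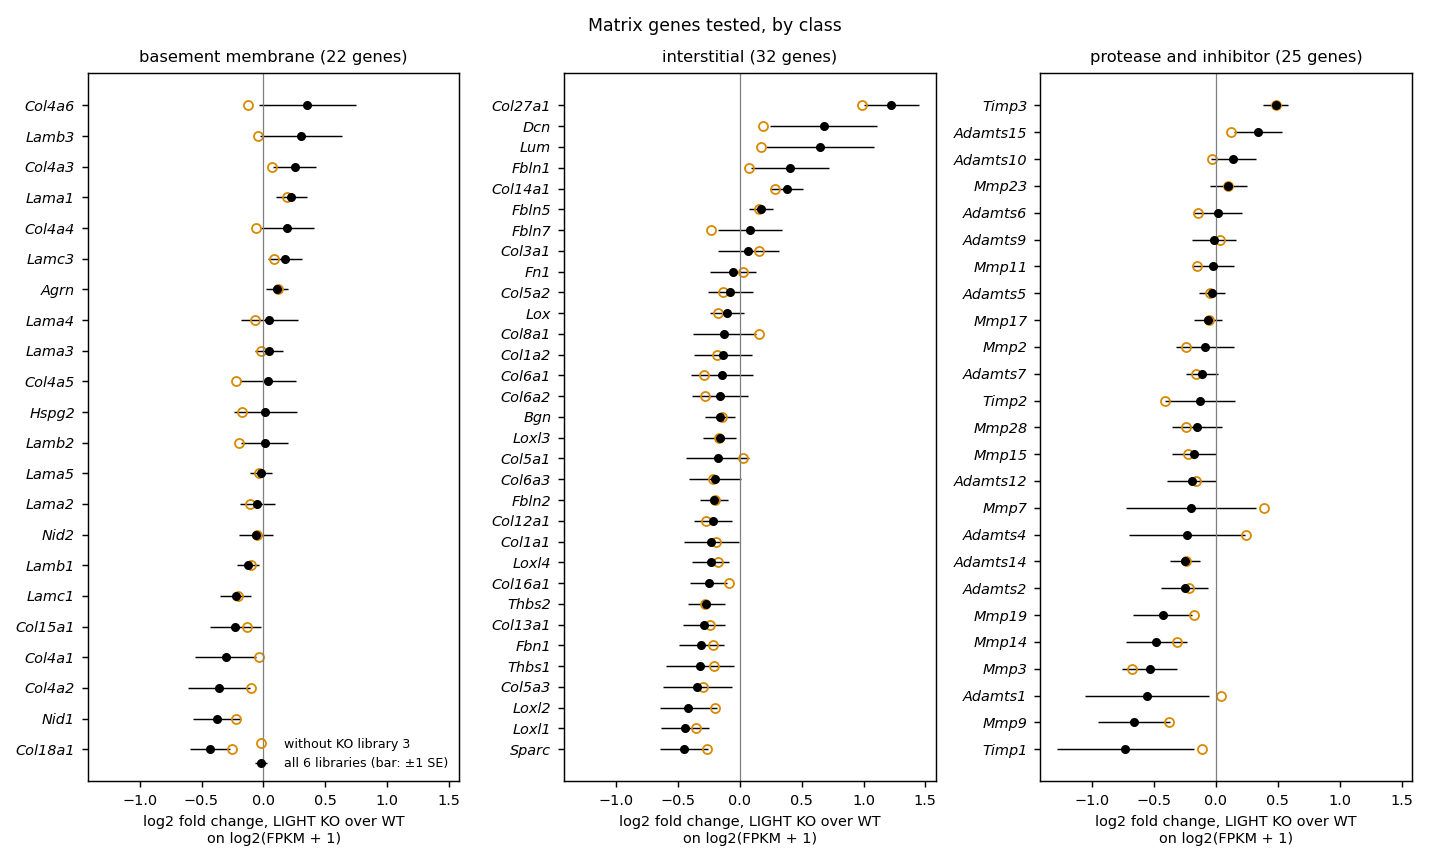
Log2 fold change (LIGHT KO over WT, on log2(FPKM + 1)) of 79 of the 80 members tested, in 3 classes. Black points with bars are the value over 6 libraries ± SE, and open points are the value without knockout library 3. Most genes lie within 0.5 of no change, while Col27a1 stands at 1.23.

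The promoters of Timp3 and Col27a1, on the higher side, and of Mmp3, on the lower, are shown because these genes are among the 5 with an unadjusted p under 0.05. Col18a1, the other of the lower side, has more than 1 start in the table and is not shown. Of the 80 members, 50 had an entry in RefSeq's promoter table (GRCm38.p6), and Col14a1 was not among them. Each line gives the plus strand, 5′ to 3′, up to the RefSeq start or, for Timp3, up to the first exon of the annotation. Capitals mark matches, on either strand, to TGANTCA of AP-1, GGGCGG of the GC box, TATAAA or CCAAT, and none overlap here.
Timp3, chr10:86300162-86300371: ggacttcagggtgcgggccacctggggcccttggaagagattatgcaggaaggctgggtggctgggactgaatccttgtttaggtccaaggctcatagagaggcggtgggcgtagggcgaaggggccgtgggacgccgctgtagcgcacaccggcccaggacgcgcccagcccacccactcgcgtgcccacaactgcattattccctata
Col27a1, chr4:63215162-63215411: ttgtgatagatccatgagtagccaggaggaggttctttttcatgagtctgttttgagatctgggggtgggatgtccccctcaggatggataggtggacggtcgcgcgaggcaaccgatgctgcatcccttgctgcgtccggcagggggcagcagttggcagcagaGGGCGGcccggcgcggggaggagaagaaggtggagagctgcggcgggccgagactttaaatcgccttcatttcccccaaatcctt
Mmp3, chr9:7445572-7445821: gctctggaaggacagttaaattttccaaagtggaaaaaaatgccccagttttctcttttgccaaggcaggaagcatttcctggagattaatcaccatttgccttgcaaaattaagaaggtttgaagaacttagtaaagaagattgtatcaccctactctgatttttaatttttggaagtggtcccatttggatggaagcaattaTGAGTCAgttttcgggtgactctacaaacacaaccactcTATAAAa
The Mmp3 window held 1 AP-1 match and 1 TATAAA match at a GC content of 37.6%. The Col27a1 window held 1 GC box at 59.6%, and the Timp3 stretch of 210 bases held none of the 4 motifs at 63.8%. In windows of 250 bases before a start, an AP-1 match was present in 6.7% of all 32851 RefSeq promoters and in 3 of the 58 windows of members, those of Mmp3, Mmp7 and Col6a1. A GC box was present in 32.7% of all promoters and 35 of 58 member windows, TATAAA in 12.4% and 6 of 58, and CCAAT in 33.8% and 17 of 58. The Col27a1 window lies inside the longer gene of the GENCODE annotation.

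Single libraries stood apart in many members. Knockout library 3 stood apart across all genes, with Pearson correlations of 0.934 to 0.956 with the others against 0.976 to 0.989 among the rest. For the matrix, WT library 3 also stood out: it was the highest of the 6 libraries in 49 of 80 members, or 61.2%, against 26.7% of all genes. Knockout library 1 and WT library 1 were the highest in 0 of the 80, against 7.74% and 11.5% of all genes, and knockout library 1 was the lowest in 28 of them, or 35.0%, against 18.5% of all genes. Knockout library 3 was the highest in 20 of the 80 members and the lowest in 23, against 29.8% and 30.3% of all genes. Summed FPKM of the 82 matrix genes was 1276, 1395 and 1144 in the knockout libraries, against 1206, 1302 and 1551 in the WT libraries, or 0.379 to 0.502% of each library's total. The sums of the groups overlap, and the lowest and the highest come from the third library of each.

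**Figure D2:**
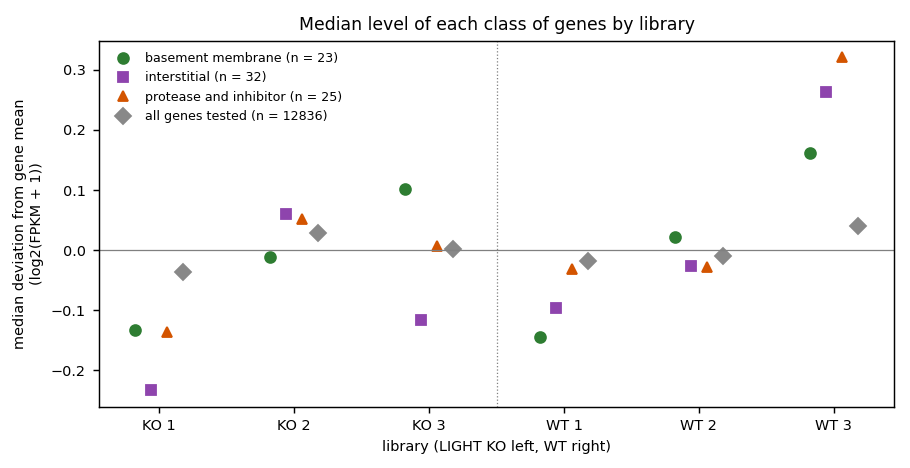
Median over the genes of a class of the deviation of log2(FPKM + 1) from each gene's mean over 6 libraries, by library, for the 3 matrix classes and all genes tested. WT library 3 lies at 0.16 to 0.32 in the matrix classes against 0.04 for all genes, and knockout library 1 lies at -0.23 to -0.13 against -0.04.

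Interstitial genes and proteases had mostly lower values in the knockout, with or without knockout library 3. Their medians lay near 0 once WT library 3 was left out. Of the 32 interstitial genes tested, 24 had a lower value in the knockout, and the median of their log2 fold changes was -0.16. Of 25 proteases and inhibitors 20 did, and the median was -0.15. Over all genes the median was -0.01 and 52.1% had a lower value. Without knockout library 3 the medians were -0.18 and -0.15. The genes with a lower value were then 22 of 32 and 18 of 25, against 53.6% of all genes. WT library 3 was the highest library in 49 of the 80 members, so leaving it out raises the fold changes of those members. Without WT library 3 the medians were -0.01 and -0.03, the genes with a lower value were 16 of 32 and 14 of 25, and over all 80 members 47.5% had a lower value, against 47.4% of all genes. The 23 basement membrane genes were split, 12 with a higher and 11 with a lower value and a median of 0.01. Without knockout library 3 the split was 4 and 19 with a median of -0.10, where 53.6% of all genes had a lower value. Without WT library 3 it was 15 and 8 with a median of 0.06. Without library 3 of both groups, chosen after seeing the data, it was 13 and 10 with a median of 0.005. The direction of this class thus depended on which library was left out. Leaving out knockout library 3 turned the sign of the fold change of 18 of 80 members, or 22.5%, against 18.9% of all genes.

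Some sets of cell markers stood out in knockout library 3, and the sum of the contractile genes was highest in WT library 3. The sums of 7 endothelial genes overlapped, at 162 to 188 FPKM in the knockout and 169 to 204 FPKM in WT. The adipocyte genes Adipoq, Plin1 and Cidec summed to 0.702, 0.270 and 26.6 FPKM in the knockout libraries and to 1.01, 0.685 and 0.465 FPKM in the WT libraries, with Adipoq at 13.2 FPKM in knockout library 3 and at 0 in knockout library 2 and in all 3 WT libraries. Lep, the fourth gene of that list, was not analysed here. The proximal tubule genes Lrp2, Slc34a1, Slc5a2 and Cubn summed to 552, 610 and 1164 FPKM in the knockout and to 463, 473 and 405 FPKM in WT. All 4 were higher in each knockout library, with a median log2 fold change of 0.62 over 6 libraries and 0.34 without knockout library 3, and each had a limma adjusted p of 0.592. Of the injured tubule genes, Havcr1 had 596, 415 and 143 FPKM in the knockout and 895, 770 and 833 FPKM in WT, without overlap, while Lcn2, Krt20 and Sox9 overlapped between the groups and were all lowest in knockout library 3. The 4 together summed to between 182 and 838 FPKM in the knockout and to between 1104 and 1118 FPKM in WT. The contractile genes Acta2, Myh11, Tagln and Cnn1 summed to between 106 and 139 FPKM in the knockout and to between 149 and 360 FPKM in WT, highest in WT library 3. That sum is nearly all Acta2 and Tagln, which were lower in each knockout library, while Myh11 and Cnn1 overlapped between the groups and were highest in knockout library 3, at 11.5 and 3.05 FPKM. Pdgfra and Pdgfrb, receptors of fibroblasts and pericytes that are not members, overlapped between the groups, with Pdgfra at 6.46, 8.82 and 11.1 FPKM in the knockout and 6.63, 7.47 and 11.5 FPKM in WT. The part of these markers in the matrix values was not tested. Kidney identity was as labelled, with Lrp2 of proximal tubule, Umod of thick ascending limb and Aqp2 of collecting duct at 38.5 FPKM or more in each library.

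Among basement membrane genes, Col18a1 was the 1 member of 23 whose groups did not overlap, against 16.6% of all genes. It encodes collagen XVIII, a heparan sulfate proteoglycan whose C-terminal fragment is endostatin, and lies on chromosome 10 from 77052178 to 77166548 (mm10). The level was 65.0, 57.3 and 42.4 FPKM in the knockout and 69.7, 76.5 and 73.4 FPKM in WT. Each knockout library was below each WT library, and library 3 was the lowest. The log2 fold change was -0.43 ± 0.16 (SE), with an unadjusted p of 0.0330 and a limma adjusted p of 0.592, and it was -0.26 without knockout library 3. With any 1 library left out the unadjusted p lay between 0.0108 and 0.0924. Col15a1, which encodes the related collagen XV, overlapped between groups at 10.9, 13.7 and 9.90 FPKM in the knockout and 10.9, 12.3 and 18.2 FPKM in WT.

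Collagen IV forms networks of 3 chains each. The chains alpha1 and alpha2 are present in all basement membranes, while alpha3, alpha4 and alpha5 build the mature glomerular membrane. Col4a1 had 118, 126 and 69.6 FPKM in the knockout and 103, 132 and 145 FPKM in WT. Col4a2 had 78.3, 92.8 and 49.7 FPKM in the knockout and 75.2, 95.8 and 107 FPKM in WT. Both genes were lowest in knockout library 3, and their groups overlap, with log2 fold changes of -0.31 ± 0.25 and -0.36 ± 0.25 (SE, limma adjusted p = 0.705 and 0.663) that came to -0.04 and -0.10 without that library. The ratio of Col4a1 to Col4a2 lay between 1.36 and 1.51 in all 6 libraries. These genes lie head to head on opposite strands of chromosome 8 and their annotated exons overlap, so with the strand setting of the counting not given, reads from the shared stretch cannot be told apart.

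The alpha3 and alpha4 chains showed the opposite order in knockout library 3. Col4a3 had 22.7, 22.5 and 33.3 FPKM in the knockout and 19.5, 24.2 and 20.8 FPKM in WT. Col4a4 had 17.04, 18.6 and 30.8 FPKM in the knockout and 18.9, 18.9 and 17.9 FPKM in WT. Both were highest in knockout library 3, and the other 5 libraries lay close together. The ratio of Col4a3 to Col4a1 was 0.192, 0.178 and 0.478 in the knockout libraries and 0.189, 0.183 and 0.144 in the WT libraries, while that of Col4a3 to Col4a4 stayed between 1.03 and 1.33. Col4a5 had 15.01 FPKM in knockout library 3 and 8.15 to 10.9 FPKM elsewhere, and Col4a6, a chain of smooth muscle and some epithelial membranes, had 2.86 FPKM in that library and 0.348 to 0.749 FPKM in the others. None of these 4 genes passed, with limma adjusted p from 0.663 to 0.962. Podxl of podocytes had 56.7, 60.3 and 59.5 FPKM in the knockout and 67.4, 71.3 and 62.0 FPKM in WT, with Nphs1 highest in knockout library 3 at 3.53 FPKM, against 2.04 to 3.03 FPKM in the other 5 libraries. Wt1 had 0.569, 0.874 and 1.34 FPKM in the knockout and 0.981, 1.38 and 0.970 FPKM in WT, and Synpo had 3.51, 3.95 and 1.98 FPKM in the knockout and 4.41, 4.84 and 4.84 FPKM in WT. These podocyte genes do not share an order over the libraries. Aqp2 of the collecting duct had 325 FPKM in knockout library 3 against 38.5 to 89.5 FPKM in the other 5 libraries.

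**Figure D3:**
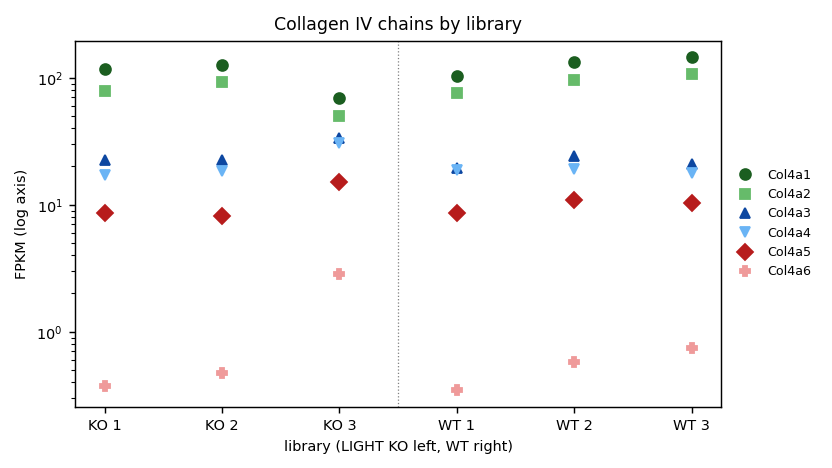
FPKM of the 6 collagen IV chains in each library, on a log axis. In knockout library 3 Col4a1 and Col4a2 are at their lowest, 69.6 and 49.7 FPKM, and the other 4 chains at their highest.

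All 11 laminin genes of the annotation were in the table, and all had groups that overlapped. Over all genes tested, 16.6% had groups that did not overlap. Laminins are trimers of an alpha, a beta and a gamma chain, and the most abundant of each kind were Lama5, Lamb1 and Lamc1. Lama5 had 14.8, 13.7 and 14.8 FPKM in the knockout and 13.7, 14.8 and 15.6 FPKM in WT. Lamb1 had 19.7, 20.8 and 19.4 FPKM in the knockout and 20.1, 22.6 and 22.9 FPKM in WT. For both the spread between libraries was small, and the log2 fold changes were -0.02 ± 0.09 and -0.12 ± 0.09 (SE). Lamb2, the beta chain of mature glomerular laminin, gave a ratio to Lamb1 of 0.423, 0.445 and 0.722 in the knockout and 0.455, 0.444 and 0.505 in WT, highest in knockout library 3. Lamb3, a chain of the laminin that anchors epithelia, was also highest in that library, and had 1.26, 1.79 and 4.17 FPKM in the knockout and 1.09, 1.50 and 2.33 FPKM in WT. Of the 11 genes, 0 had an unadjusted p under 0.05, against 8.08% of all genes. With 11 genes this does not set the laminins apart. Lama1, which lies within 25 Mb of Tnfsf14 on chromosome 17 as does Adamts10, had 1.95, 2.82 and 2.61 FPKM in the knockout and 1.88, 2.04 and 1.91 FPKM in WT (limma adjusted p = 0.620).

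The groups overlapped for each linker of the basement membrane, while 16.6% of all genes had groups that did not overlap. Nid1, which bridges laminin and collagen IV, had 24.1, 27.8 and 18.5 FPKM in the knockout and 24.9, 31.3 and 35.8 FPKM in WT, a log2 fold change of -0.38 ± 0.19 (SE, limma adjusted p = 0.598) that was -0.22 without knockout library 3. Nid2 had 5.99 ± 0.788 FPKM in the knockout and 6.29 ± 0.944 FPKM in WT (SD, n = 3 each). Nid1 was lowest in knockout library 3 and highest in WT library 3. Agrn, the gene of agrin, had 27.9, 28.0 and 27.7 FPKM in the knockout and 25.1, 24.3 and 28.0 FPKM in WT. Hspg2, the gene of perlecan, had 8.19, 10.6 and 14.2 FPKM in the knockout and 7.82, 10.6 and 14.4 FPKM in WT, so each group held nearly the same range.

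Col27a1 was the interstitial gene with the smallest p and the largest difference. It encodes the chain of collagen XXVII, a fibrillar collagen best known from cartilage, and lies on chromosome 4 from 63214004 to 63334991. The level was 5.39, 7.13 and 10.7 FPKM in the knockout and 2.95, 2.64 and 2.32 FPKM in WT. Every knockout library was above every WT library, and knockout library 3 was the highest. The fold was 2.34, or a log2 fold change of 1.23 ± 0.22 (SE), with an unadjusted p of 0.00102 and a limma adjusted p of 0.335. Without knockout library 3 the log2 fold change was 0.99. The call depended on the model: with a weight for each library the adjusted p was 0.0176, and it lay between 0.128 and 0.844 with any 1 library left out.

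Col14a1 encodes collagen XIV, which coats fibrils and regulates their spacing, and its groups also did not overlap. It had 4.75, 5.91 and 6.72 FPKM in the knockout and 4.56, 4.03 and 3.99 FPKM in WT. The closest pair, knockout library 1 and WT library 1, differed little. The log2 fold change was 0.38 ± 0.13 (SE), with an unadjusted p of 0.0251, which lay between 0.00607 and 0.0737 with any 1 library left out, and a limma adjusted p of 0.592. Fbln5, a fibulin needed for elastic fibres, was likewise higher in each knockout library, at 13.3, 12.8 and 13.5 FPKM, against 11.9, 10.4 and 12.6 FPKM in WT, by 0.17 ± 0.10 on the log2 scale (SE, limma adjusted p = 0.623).

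The main fibril collagens overlapped between genotypes. Col1a1 had 18.0, 24.0 and 19.2 FPKM in the knockout and 20.3, 19.9 and 33.6 FPKM in WT. Col3a1 had 26.0, 34.8 and 24.9 FPKM in the knockout and 24.9, 20.1 and 38.6 FPKM in WT. In both the highest library was WT library 3, with knockout library 2 next to it. Col1a1 and Col1a2 supply the 2 kinds of chain of collagen I, and their ratio was 1.24 to 1.50 in the knockout libraries and 1.39 to 1.67 in the WT libraries. The 3 collagen VI genes, whose product forms beaded filaments around cells, had log2 fold changes of -0.20 to -0.14, all above 0 without WT library 3 with a median of 0.03, and the ratio of Col6a1 to Col6a2 lay between 2.71 and 3.23 in all libraries. Col5a1, Col5a2 and Col5a3, which set fibril width, had log2 fold changes of -0.34 to -0.08. Over the 7 fibrillar collagen genes, Col27a1 included, 5 had a lower value in the knockout, and 1 did without WT library 3.

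Sparc, the second most abundant member, had groups that did not overlap. It encodes a collagen-binding matricellular protein. It had 129, 126 and 86.5 FPKM in the knockout and 137, 142 and 186 FPKM in WT. The difference is widest between the third libraries of the 2 groups. The log2 fold change was -0.45 ± 0.20 (SE), with a limma adjusted p of 0.592, and it was -0.27 without knockout library 3. Thbs1, a matricellular activator of latent TGF-beta, had 33.8, 38.7 and 28.5 FPKM in the knockout and 29.0, 40.4 and 62.9 FPKM in WT, again highest in WT library 3.

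Lysyl oxidases start the cross-linking of collagen and elastin, and all 5 measured were below WT on average and highest in WT library 3. Loxl1 had 8.19, 12.4 and 8.26 FPKM in the knockout and 11.7, 11.8 and 16.3 FPKM in WT. Loxl2 had 10.4, 10.5 and 6.33 FPKM in the knockout and 10.8, 10.6 and 15.7 FPKM in WT. The groups of Loxl2 did not overlap, by a narrow margin, and those of Loxl1 did. The median log2 fold change of the 5 was -0.23, and -0.16 without WT library 3, with limma adjusted p from 0.592 to 0.818.

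Dcn and Lum, of the small proteoglycans, and Fbln1 were highest in knockout library 3. Dcn, the gene of decorin, had 7.39, 12.3 and 28.1 FPKM in the knockout and 7.78, 6.94 and 10.4 FPKM in WT. Lum, the gene of lumican, had 0.216, 1.14 and 3.33 FPKM in the knockout and 0.282, 0.305 and 0.748 FPKM in WT. Fbln1, a fibulin of basement membranes and elastic fibres, had 0.922, 1.76 and 3.56 FPKM in the knockout and 1.07, 0.913 and 1.64 FPKM in WT. Without knockout library 3 the log2 fold changes of 0.68, 0.65 and 0.40 came to 0.19, 0.17 and 0.07. Bgn, the gene of biglycan and the most abundant of these proteoglycans, had 31.3, 37.4 and 32.6 FPKM in the knockout and 36.4, 34.4 and 43.1 FPKM in WT, and Fn1, the gene of fibronectin, had 4.55, 7.72 and 4.90 FPKM in the knockout and 5.47, 5.60 and 6.52 FPKM in WT. Of the remaining interstitial genes, Fbln2, Col13a1 and Col16a1 were below WT in each knockout library, by 0.21 ± 0.11, 0.29 ± 0.17 and 0.25 ± 0.15 on the log2 scale (SE), with limma adjusted p of 0.613, 0.627 and 0.634.

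Timp3 was the most abundant matrix gene and, among proteases and inhibitors, the one with the smallest p. TIMP3 is an inhibitor of metalloproteinases, ADAMTS and ADAM enzymes that binds to the matrix itself. The gene lies on chromosome 10 from 86300372 to 86349506. It had 294, 309 and 301 FPKM in the knockout and 218, 234 and 195 FPKM in WT. All knockout libraries lay above all WT libraries, and knockout library 3 fell between the other 2. The fold was 1.40, or a log2 fold change of 0.49 ± 0.10 (SE), with an unadjusted p of 0.00221 and a limma adjusted p of 0.508. The value was 0.49 without knockout library 3 as well, and 0.42 without WT library 3. Syn3, which overlaps Timp3 on the opposite strand, had 0.110 to 1.15 FPKM over the 6 libraries, far below Timp3.

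The other inhibitors did not follow it. Timp1, which is induced by injury and cytokines, had 51.4, 51.2 and 13.4 FPKM in the knockout and 64.0, 34.7 and 76.2 FPKM in WT. Timp2 had 12.2, 13.8 and 24.0 FPKM in the knockout and 13.7, 16.8 and 23.3 FPKM in WT. The groups of both overlap, with Timp1 lowest and Timp2 highest in knockout library 3. Their log2 fold changes were -0.73 ± 0.55 and -0.13 ± 0.28 (SE, limma adjusted p = 0.689 and 0.890), and -0.11 and -0.41 without that library. The differences between the fold changes of these inhibitors were not tested.

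Mmp3, which encodes stromelysin 1, was the metalloproteinase with the smallest p. It lies on chromosome 9 from 7445822 to 7455975. It had 1.27, 1.90 and 2.48 FPKM in the knockout and 2.93, 2.35 and 4.26 FPKM in WT. Knockout library 3 was above WT library 2, so the groups overlap by a narrow margin. The log2 fold change was -0.53 ± 0.22 (SE), with an unadjusted p of 0.0485 and a limma adjusted p of 0.592. Without knockout library 3 it was -0.68, while without knockout library 1 or WT library 3 it was -0.37 or -0.35, with an unadjusted p of 0.143 or 0.148.

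**Figure D4:**
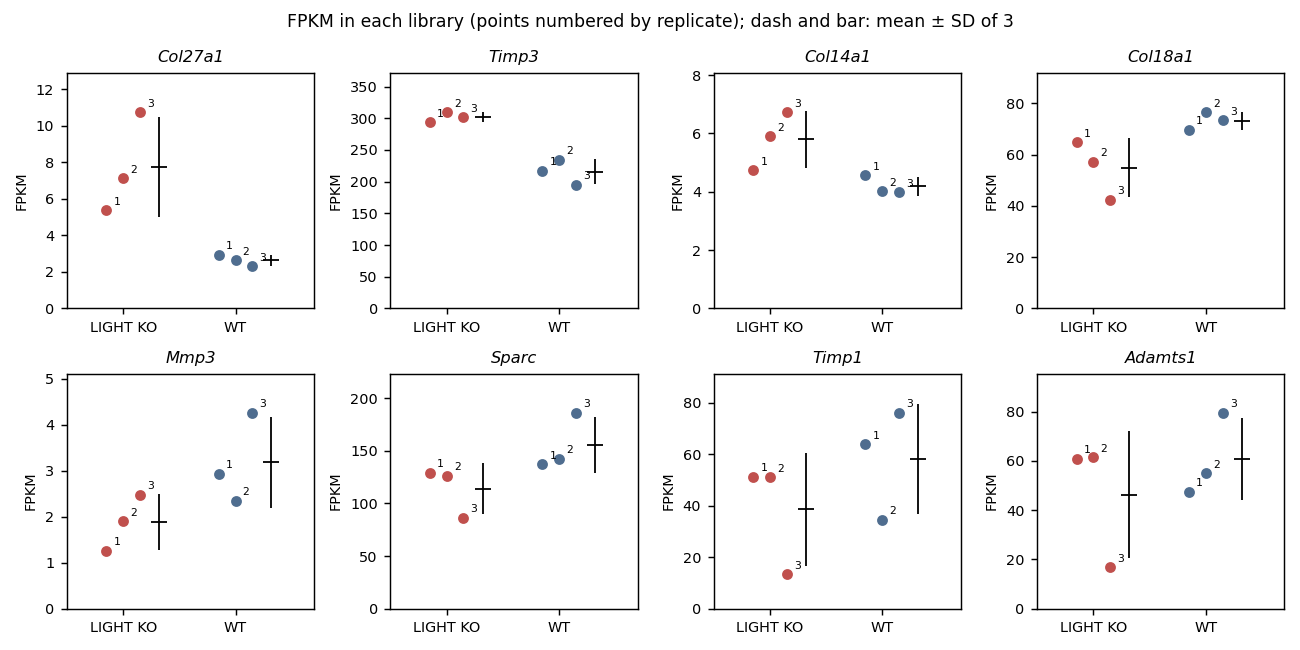
FPKM in each library of 8 members, with knockout left of WT, points numbered by replicate, and a dash with a bar for the mean ± SD of 3 libraries. Col27a1, Timp3 and Col14a1 are higher in each knockout library than in any WT library and Col18a1 and Sparc lower, while Timp1 and Adamts1 are lowest in knockout library 3, at 13.4 and 16.7 FPKM.

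Mmp9, a gelatinase carried by neutrophils, had 1.14, 1.60 and 0.321 FPKM in the knockout and 1.72, 1.60 and 3.07 FPKM in WT, a log2 fold change of -0.66 ± 0.29 (SE, limma adjusted p = 0.592), with the groups all but touching at library 2 of each. It was -0.38 without knockout library 3 and -0.21 with a weight for each library. The neutrophil genes S100a8, S100a9, Csf3r and Retnlg summed to between 19.9 and 61.3 FPKM in the knockout and to between 59.8 and 88.7 FPKM in WT, lowest in the same library as Mmp9, and their part in its value was not tested. Mmp14, a membrane-bound collagenase that activates pro-MMP2 and the most abundant metalloproteinase, had 4.13, 6.96 and 3.52 FPKM in the knockout and 5.72, 6.48 and 8.96 FPKM in WT. Mmp2 itself had 0.570, 1.08 and 1.49 FPKM in the knockout and 0.624, 1.32 and 1.59 FPKM in WT. Mmp7, which epithelial cells make, varied within both groups, from 0.143 to 3.33 FPKM in the knockout and from 0.999 to 3.09 FPKM in WT. In 10 of the 11 metalloproteinases tested the value was lower in the knockout (median of log2 fold changes -0.18), and in 8 of 11 without WT library 3 (median -0.05). Mmp12, which macrophages make, was untested at 0.248 ± 0.129 FPKM in the knockout and 0.656 ± 0.286 FPKM in WT (SD, n = 3 each).

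Adamts1 was the most abundant ADAMTS gene, and its lower mean in the knockout rested on 1 library. The enzyme cuts versican and other large proteoglycans. It had 60.9, 61.4 and 16.7 FPKM in the knockout and 47.6, 55.0 and 79.5 FPKM in WT. Only knockout library 3 lay below all WT libraries, and the log2 fold change of -0.56 ± 0.50 (SE) was 0.04 without it. Adamts4, an aggrecan-cutting relative, was also lowest in knockout library 3 and highest in WT library 3, with 5.67, 7.62 and 1.80 FPKM in the knockout and 4.17, 3.97 and 9.22 FPKM in WT. Its level is uncertain, since the strand setting of the counting is not given. Adamts15 was higher in each knockout library, at 1.86, 2.07 and 3.67 FPKM against 1.78, 1.77 and 1.64 FPKM in WT (limma adjusted p = 0.624), and Adamts14, which trims procollagen, was lower in each, at 0.662, 0.779 and 0.689 FPKM against 0.784, 1.13 and 1.20 FPKM in WT (limma adjusted p = 0.598). Over the 11 ADAMTS genes the median log2 fold change was -0.11, with 3 on the higher side and 8 on the lower, and without WT library 3 it was 0.01, with 6 on the higher side and 5 on the lower.

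Other genes of matrix making were taken from 3 lists, which were chosen with earlier results of these data known. The genes named from these lists are those with an unadjusted p under 0.05 in limma. They are 3 of 21, 1 of 29 and 1 of 17 genes tested in the 3 lists, against 8.08% of all genes. Groups did not overlap in 3 of 21, 2 of 29 and 3 of 17, against 16.6% of all genes. Of 21 enzymes and chaperones of collagen folding and cross-linking tested, 0 passed the adjusted test, 9 had a higher and 12 a lower value in the knockout, and the median log2 fold change was -0.04, turning to 0.04 without WT library 3. P3h2, a prolyl 3-hydroxylase that modifies collagen IV, had 24.7, 39.1 and 55.6 FPKM in the knockout and 21.9, 17.6 and 18.6 FPKM in WT (log2 fold change 0.94 ± 0.27 SE, unadjusted p = 0.0122, limma adjusted p = 0.592). Pxdn, peroxidasin, which cross-links collagen IV, had 5.25, 4.80 and 4.09 FPKM in the knockout and 5.56, 6.32 and 6.84 FPKM in WT (unadjusted p = 0.0254). These enzymes of collagen IV stood on opposite sides, each without overlap of the groups. Pcolce2, an enhancer of procollagen trimming, had 1.01 ± 0.115 FPKM in the knockout and 1.65 ± 0.481 FPKM in WT (SD, n = 3 each).

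Of 29 other matrix and matricellular genes tested, 0 passed the adjusted test. There were 18 on the higher side and 11 on the lower. Their median log2 fold change was 0.06, and it was -0.05 without knockout library 3 and 0.16 without WT library 3. Eln, the gene of elastin, had 1.36, 1.80 and 1.67 FPKM in the knockout and 2.05, 2.28 and 3.09 FPKM in WT, without overlap (log2 fold change -0.41 ± 0.14 SE, unadjusted p = 0.0280, limma adjusted p = 0.592). Fbln5, also of elastic fibres, stood on the other side. Among 17 genes of the plasmin system and other matrix proteases, 0 passed, with 3 on the higher side and 14 on the lower and a median of -0.14, which was -0.03 without WT library 3, with 5 on the higher side and 12 on the lower. Adam9, a membrane protease, had 33.8, 34.3 and 35.9 FPKM in the knockout and 41.7, 40.2 and 40.7 FPKM in WT, a small difference beside tight libraries (log2 fold change -0.23 ± 0.08 SE, unadjusted p = 0.0215, limma adjusted p = 0.592).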

How the data were processed

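Kidney RNA was isolated with TRIzol and sequenced from KAPA libraries of a strand-marking kind, per the labels' protocols. The authors deposited FPKM per gene, and the submitters' processing notes name FastQC, HISAT2, StringTie and mm10, with no versions. No source used here gives the annotation, the strand setting or the number of reads. The 6 library files were identical to the table of all libraries. In each row the higher group mean is at least 0.500 FPKM, and 43 annotated genes that match the member rule have no row in this table and were not analysed here. FPKM give no read count, and no count model or counting interval was used.

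Values were put on log2(FPKM + 1), genes averaging 0.5 FPKM or more were kept (12836), and limma 3.58.1 (R 4.3.3), with a mean-variance trend, tested knockout over wild type, two-sided, adjusted by Benjamini-Hochberg over all genes kept, at 0.05. The fit was run on simulated data, drawn independently for each library with some genes changed. No simulated library stood apart, so that run does not cover the effect of knockout library 3. With 3 libraries in each group, exact permutation has a smallest two-sided p of 0.1, so it was not used. Members, classes and lists were chosen with earlier results of these data known. Named members were those with p under 0.05, the 6 most abundant of each class, up to 4 per direction and class without overlap, the paired chains and the extremes of each class, and from the 3 lists those with p under 0.05. All other members given were chosen after their values were seen, as were the ratios with Col4a1. Positions are from GENCODE M21 (mm10), where 13005 of 13026 identifiers matched. Alternatives were other pseudocounts, filters, scalings and variance models, a replicate block and each library left out. One matrix member and a few other genes are not reported here.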

Additional observations from a re-analysis of the deposited data

How the results depend on the processing

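The count of 0 members past an adjusted p of 0.05 held in each alternative except weights per library, where it was 1 (Col27a1). With those weights 52 of all 12836 genes passed, against 15 in the main fit. Without the adjustment 3 members had a p under 0.05 on the higher side and 2 on the lower. With library weights the count on the higher side was 7, and the median of proteases and inhibitors was 0.025 on the log2 scale. The share of all genes past an unadjusted p was taken only for the main fit and that without knockout library 3. Unadjusted counts from the other fits therefore cannot be set against all genes. Leaving out 1 library in turn gave 0 to 0 members past the adjusted p. At the unadjusted p it gave 2 to 7 on the higher side and 0 to 6 on the lower. The 7 on the higher side came without knockout library 1. On the lower side there were 6 without knockout library 2, 4 without WT library 1, 1 without WT library 2 and 0 without WT library 3. Those fits gave medians of -0.102 to 0.069 for basement membrane, -0.263 to -0.012 for interstitial genes and -0.284 to -0.033 for proteases and inhibitors. Without library 3 of both groups, chosen after seeing the data, 1 member remained on the lower side.

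Single genes were followed over the alternatives only for the 34 members named by rule, so other members that turned are not listed. Library weights turned the direction of Col4a6 (-0.01), Lamb2 (-0.091), Bgn (0.002), Col1a1 (0.065), Col1a2 (0.054), Timp1 (0.027), Adamts1 (0.042) and Adamts4 (0.483). Leaving out library 3 of both groups turned Col4a2 (0.005), Col4a1 (0.064), Col4a4 (-0.084), Col4a6 (-0.038), Lamb2 (-0.111), Thbs1 (0.077), Col1a1 (0.045), Col1a2 (0.064), Timp1 (0.118), Adamts1 (0.253) and Adamts4 (0.581). With 1 library left out, log2 fold changes ran from -0.059 to 0.349 for Col4a4, -0.125 to 0.62 for Col4a6, -0.194 to 0.146 for Lamb2, -0.352 to 0.009 for Col1a1, -0.333 to 0.03 for Col6a2, -0.318 to 0.114 for Col1a2, -0.329 to 0.069 for Col6a1, -0.13 to 0.324 for Col3a1, -0.863 to 0.044 for Adamts1, -0.569 to 0.244 for Adamts4 and -0.407 to 0.069 for Timp2. The range was -0.548 to 0.005 for Col4a2, -0.463 to 0.064 for Col4a1, -0.58 to 0.077 for Thbs1, -1.06 to 0.118 for Timp1 and up to 0.413 for Col3a1 with these omissions and that of both libraries 3. The cause of these turns was not tested. Col27a1 ranged from 0.991 to 1.43 and Timp3 from 0.415 to 0.547. Same-numbered libraries had correlations of -0.133 to 0.146 in their deviations from the group means. These few values do not show a pairing and cannot exclude one. With the replicate block 0 members passed the adjusted p, with 2 on each side at an unadjusted p under 0.05. The depth of each library is unknown, which limits genes near 0.5 FPKM.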
